A study of Mus musculus with 28 samples.

Results

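The genes described here are 10 members of the guanylate-binding protein (GBP) and immunity-related GTPase (IRG) families, Gbp2, Gbp3, Gbp5, Gbp6, Gbp7, Gbp9, Igtp, Irgm1, Irgm2 and Iigp1. They were picked by symbol among the 18509 rows that carry one, and each was found in exactly 1 row. Gbp7 entered because its RNA was higher after KEAP1 loss in cultured cells, so its values in culture are given as a description and without a test. The RNA-seq data cover 28 libraries of 3LL, a cell line from Lewis lung carcinoma of the mouse, with 4 libraries in each of 7 groups. The cultured cells were wild type (WT), KEAP1-KO, which carried a homozygous 1 bp insertion in exon 2 of Keap1 made with CRISPR-Cas9 in a line grown from a single colony, or KEAP1-NRF2 double knockout (DKO), made from the KEAP1-KO line by cutting exon 5 of Nrf2. The tumors were grown under the skin of albino C57BL/6 male mice that were 6 weeks old at transplantation, and were taken 10 days later. Each mouse received cells of 1 genotype on either side: WT on the left with KEAP1-KO on the right (Experiment A), or KEAP1-KO on the left with DKO on the right (Experiment B). Genotype and flank therefore cannot be told apart within an experiment. Tumor libraries hold RNA of host cells beside that of the transplanted cells. The comparisons ask whether NRF2, which KEAP1 holds down, moves these genes in the cancer cells and in the tumors that they form.

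Values below are normalized counts, recovered from the deposited log2(normalized count + 4), and differences are on that log2 scale with their standard error (SE) from limma, a linear model fitted across all rows. A row was called when its Benjamini-Hochberg adjusted p over all rows tested was under 0.05. A difference on this scale understates the change of a gene with few reads. The targeted pathway behaved as the labels say: the Keap1 row held between 649 and 751 normalized counts in WT cells and between 153 and 197 in the edited cells, and Nqo1, a target of NRF2, held between 5073 and 5943 in KEAP1-KO cells, between 474 and 563 in WT cells and between 96.5 and 112 in DKO cells. The row of Nfe2l2, which encodes NRF2, had a mean of 24.9 in KEAP1-KO and of 30.3 in DKO cells, with overlapping ranges, so that RNA level did not tell this edit apart. Reads recovered per library ranged from 4222352 to 7524277. The labels do not say whether libraries of a group came from separate cultures or animals, so the p-values measure only the spread between these libraries.

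GBPs and IRGs are large GTPases through which single cells defend themselves against microbes: they gather on the membrane around an intruder, break it open and expose what is inside to the inflammasome and to autophagy. Interferon gamma turns these genes on. Its receptor activates JAK kinases, and the signal reaches promoters at gamma-activated sites and, through IRF1, at interferon-stimulated response elements. NRF2 acts elsewhere, through antioxidant response elements in genes of detoxification, and KEAP1 delivers it for degradation.

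The promoters of the genes show these elements. RefSeq sequences from 250 bases before to 50 bases after the start site (build GRCm38.p6) were on hand for 7 of the 10 genes. The core of the interferon-stimulated response element, GAAA, any 2 bases and GAAA again on either strand, was found in 7 of these 7, against 3.44% of 32851 promoters. The gamma-activated site, TTCNNNGAA, was found in 4 of them (Gbp5, Gbp7, Igtp and Irgm2) against 8.3%. The core of the antioxidant response element, TGACNNNGC, was found in Igtp and Irgm2 against 12.4%, and these letters were not in the Gbp7 window. A match of letters is a description and not a bound site. The last 120 bases before the start are shown for Gbp7, which was chosen by its values in culture, and for Igtp and Irgm2. In culture the KEAP1-KO libraries of Igtp and Irgm2 were also higher, as were those of Gbp2 and Gbp3. Capitals mark the interferon-stimulated response element and the gamma-activated sites. The stretches lie at chr3:142530216-142530335 for Gbp7, chr11:58199436-58199555 for Igtp and chr11:58214857-58214976 for Irgm2, each on the plus strand.
Gbp7: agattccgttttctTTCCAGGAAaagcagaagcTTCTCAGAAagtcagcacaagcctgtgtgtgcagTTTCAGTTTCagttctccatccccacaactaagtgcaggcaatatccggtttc
Igtp: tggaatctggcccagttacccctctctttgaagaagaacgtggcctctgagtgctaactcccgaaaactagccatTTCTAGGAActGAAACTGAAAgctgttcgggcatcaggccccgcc
Irgm2: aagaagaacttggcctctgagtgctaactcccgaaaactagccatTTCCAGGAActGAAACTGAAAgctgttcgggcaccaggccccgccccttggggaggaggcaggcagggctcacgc

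Laid on each other at the element, the Igtp and Irgm2 promoters were identical at 134 of 220 bases. The element of the other 4 genes is shown with its flanks, capitals marking it. In Gbp3 and Irgm1 a pair of overlapping matches makes a longer block. The windows lie at chr3:142620599-142620618 for Gbp2, chr3:142559994-142560019 for Gbp3 and chr3:142496764-142496783 for Gbp5, on the plus strand, and at chr11:48871430-48871455 for Irgm1, on the minus strand.
Gbp2: tttagTTTCACTTTCactgt
Gbp3: cacagTTTCAGTTTCTATTTCccaga
Gbp5: tgtagTTTCAATTTCagttt
Irgm1: ttcaaGAAATAGAAACCGAAActgat

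The rows behind the symbols differ in kind. Gbp7, Gbp3, Igtp and Irgm2 have rows of whole genes. The other 6 have the row of 1 transcript, and in GENCODE vM21 none of these 6 is classed as protein coding: Gbp2 (ENSMUST00000169572) and Gbp6 (ENSMUST00000200045) are classed as targets of nonsense-mediated decay, Gbp9 (ENSMUST00000196820) as a retained intron, and Gbp5 (ENSMUST00000198803), Irgm1 (ENSMUST00000147151) and Iigp1 (ENSMUST00000235989) as processed transcripts. Members of both families are close copies of each other, and reads may be shared among them. Igtp in addition lies inside the span of a long Irgm2 transcript on the same strand. Levels are therefore compared between groups and never between genes.

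In the tumors of Experiment A, the GTPase genes were lower when the cancer cells lacked KEAP1. Gbp5 and Gbp6 passed the filter on low counts only through the WT and DKO tumors, in which they were high, so their direction was fixed by the filter and they are left out of the counts. Of the 8 genes that also passed it on the KEAP1-KO tumors alone, 7 had lower RNA in the KEAP1-KO than in the WT tumors by this call and none had higher, where 7.49% of the 34215 rows tested were called lower and 5.61% higher. All 8 had every KEAP1-KO tumor below every WT tumor, a pattern that 9.05% of rows showed. The median log2 difference of the 8 was -2.53, against -0.03 over all rows. Gbp9 was the gene not called, at -2.10 (SE 0.67, limma adjusted p = 0.0505), and it was called when WT tumor 4 or KEAP1-KO tumor 3 or 4 was left out (adjusted p = 0.048, 0.039 and 0.037).

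Among the GBPs, Gbp2, which coats the vacuoles of intracellular parasites, fell most on this scale. It held 463, 449.6, 250.4 and 276 normalized counts in the 4 WT tumors and 21.1, 26.6, 34.8 and 13.6 in the KEAP1-KO tumors. The groups were far apart, with means of 359.8 in WT and 24.0 in KEAP1-KO tumors and a log2 difference of -3.70 (SE 0.25, limma adjusted p = 1.0e-07). Gbp7, which has been tied to autophagy and to the assembly of the phagocyte oxidase, held 349, 439, 234 and 175 in WT tumors and 56.7, 59.0, 68.6 and 58.4 in KEAP1-KO tumors. It fell by 2.15 (SE 0.25, limma adjusted p = 2.4e-05), and the KEAP1-KO tumors lay closer to each other than the WT tumors did. Gbp5, which promotes assembly of the NLRP3 inflammasome, held 45.8, 69.5, 26.5 and 16.1 in WT tumors, and was at 0 in 3 of 4 KEAP1-KO tumors and at 2.31 in the fourth (difference -3.11, SE 0.41). Gbp3 fell by 3.01 (SE 0.34), from a mean of 90.9 to 7.25. Gbp6 fell by 2.38 (SE 0.43), from between 6.40 and 39.5 to at most 1.93.

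The IRGs moved the same way. Igtp, also called Irgm3, is with Irgm1 and Irgm2 one of the regulatory IRGs, which sit on the cell's own membranes and keep the effector IRGs from attacking them. It held 118, 128, 78.6 and 50.9 in WT tumors and 4.45, 6.94, 7.73 and 6.81 in KEAP1-KO tumors, and fell by 3.15 (SE 0.31, limma adjusted p = 4.4e-06). Irgm2 fell by 2.37 (SE 0.30), from between 62.0 and 144 to between 7.79 and 21.3. Irgm1 moved least. It held 254, 245, 153 and 128 in WT tumors against 64.5, 62.4, 76.3 and 70.1 in KEAP1-KO tumors, without overlap, a fall of 1.41 (SE 0.22, limma adjusted p = 0.00035). Iigp1, an effector that loads onto parasite vacuoles, held 66.5, 58.1, 39.3 and 38.2 in WT tumors and 8.89, 1.16, 4.83 and 3.89 in KEAP1-KO tumors, a fall of 2.69 (SE 0.33, limma adjusted p = 3.5e-05).

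**Figure D1:**
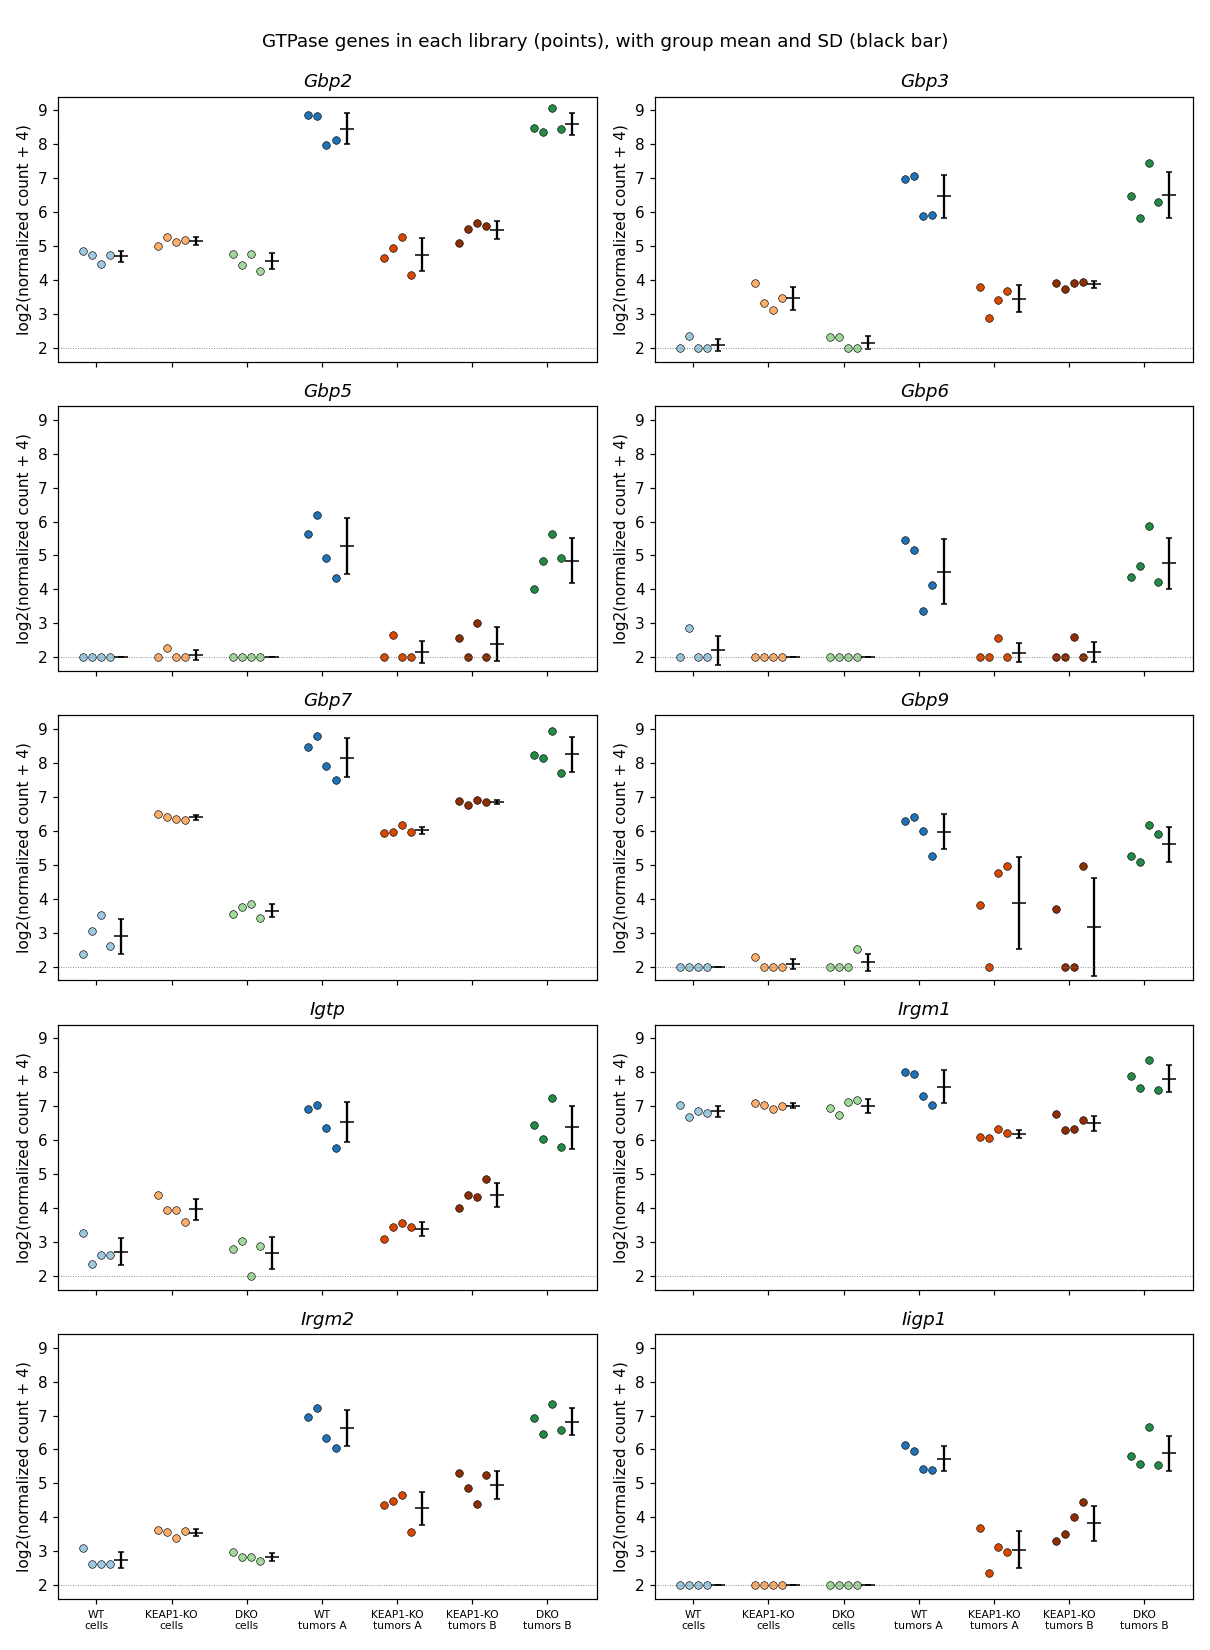
Level of each of the 10 genes on the vertical axis, as log2(normalized count + 4), in the 7 groups on the horizontal axis, with 1 point per library and the group mean and SD (n = 4) as a black bar; the dotted line at 2 marks 0 counts. WT and DKO tumors stand above KEAP1-KO tumors for all 10 genes, and Gbp7 has the widest gap between cultured KEAP1-KO and WT cells.

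In Experiment B, the same genes were higher when NRF2 was deleted in addition to KEAP1. Of the same 8, 8 were called higher in DKO than in KEAP1-KO tumors, where 4.22% of rows were called higher and 4.64% lower, and for all 8 every DKO tumor lay above every KEAP1-KO tumor (7.14% of rows). The median log2 difference was 2.02, against 0.00 over all rows. The group means compared here come from other tumors than those of Experiment A, with their own KEAP1-KO tumors. The filter and the spread behind the SE were taken from all 16 tumors, so the p-values of the 2 experiments are not independent.

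Gbp2 held 29.9, 41.0, 47.7 and 44.1 in the KEAP1-KO tumors and 355, 325, 530.2 and 344 in the DKO tumors, a rise of 3.13 (SE 0.25, limma adjusted p = 1.0e-06). Gbp7 held 114, 104, 117 and 111 in KEAP1-KO tumors and 294, 279, 486 and 202 in DKO tumors, a rise of 1.40 (SE 0.25, limma adjusted p = 0.0020). Only Irgm1 had a smaller difference, 1.31 (SE 0.22), from 105, 74.5, 77.1 and 92.7 to 231, 180.3, 321 and 176. Gbp2 thus changed 9.56-fold in mean level, and Gbp7 and Irgm1 2.83-fold and 2.60-fold. Gbp3 rose by 2.63 (SE 0.34), Gbp6 by 2.63 (SE 0.43) and Gbp5 by 2.45 (SE 0.41). Gbp6 was at 0 in 3 of the 4 KEAP1-KO tumors and lay between 14.5 and 54.2 in the DKO tumors. Gbp9 rose by 2.44 (SE 0.67, limma adjusted p = 0.031), with KEAP1-KO tumors at 8.98, 0, 0 and 27.1 and DKO tumors at 34.0, 29.9, 68.8 and 55.4. The call for Gbp9 was lost when any of 5 of the 8 tumors was left out, KEAP1-KO tumors 2 or 3 or DKO tumors 1, 3 or 4, with an adjusted p of up to 0.10. It was lost as well under the replicate block (adjusted p = 0.062) and with a pseudocount of 0.4 (adjusted p = 0.083). Among the IRGs, Iigp1 rose by 2.06 (SE 0.33), Igtp by 1.99 (SE 0.31) and Irgm2 by 1.86 (SE 0.30).

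**Figure D2:**
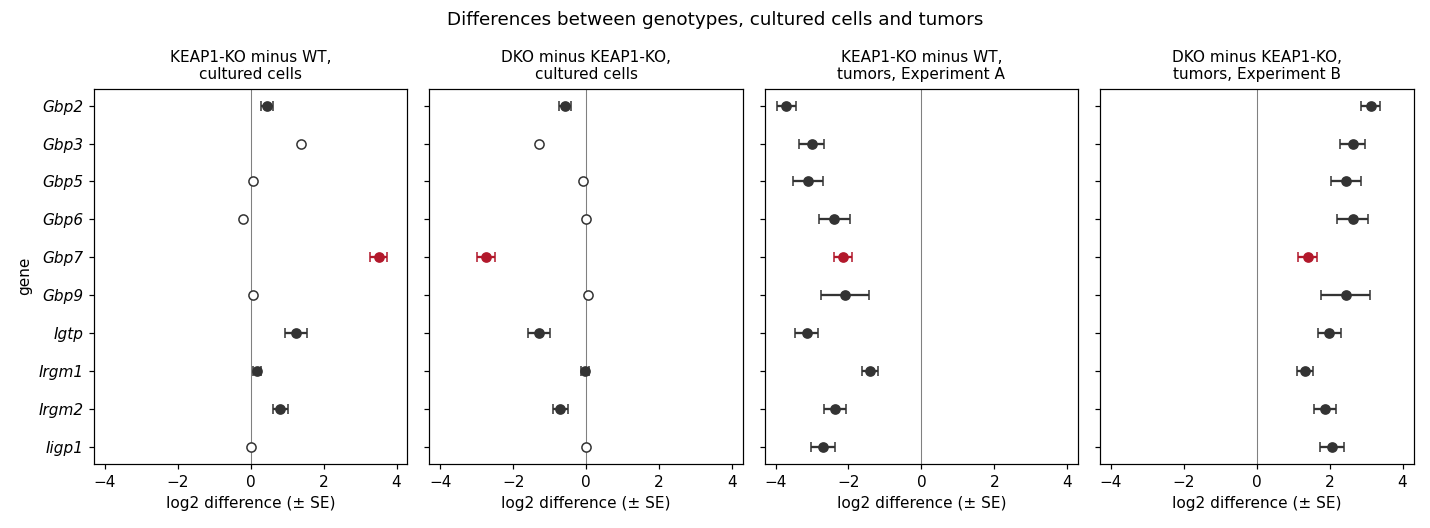
Log2 difference on the horizontal axis, with its SE, for each of the 10 genes in 4 comparisons: KEAP1-KO minus WT and DKO minus KEAP1-KO in cultured cells, and the same in tumors; Gbp7 is in red, and open points are genes below the filter on low counts, which have no SE. All 10 genes lie left of 0 in KEAP1-KO minus WT tumors and right of 0 in DKO minus KEAP1-KO tumors, while in culture Gbp7 lies at 3.51 and -2.75 in the corresponding comparisons.

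KEAP1-KO tumors were grown in both experiments, and DKO and WT tumors in 1 each. Between the KEAP1-KO tumors of Experiments B and A no gene of the 10 was called by limma (0.164% of rows were), and 5 had an unadjusted p under 0.05. Igtp differed most, being 1.01 (SE 0.31, limma adjusted p = 0.38) higher in Experiment B, and Gbp7 was 0.84 (SE 0.25, limma adjusted p = 0.35) higher. For these 2 genes the groups did not overlap, like 2.55% of rows in that direction. Between DKO and WT tumors no gene of the 10 was called, against 10.6% of rows, and none had an unadjusted p under 0.05. The groups overlapped for all 10, where 7.47% of rows did not overlap upward and 9.03% downward, and differences ran from -0.42 for Gbp5 (SE 0.41) to 0.25 for Gbp6 (SE 0.43). DKO and WT tumors differ in genotype, experiment and flank together. A difference well above its SE can go uncalled, as that of Igtp between the KEAP1-KO tumors did (1.01, SE 0.31), so equal levels are not shown.

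In cultured cells Gbp7 went against its tumor pattern. It held 1.14, 4.32, 7.58 and 2.15 normalized counts in WT cells, 86.4, 81.3, 78.3 and 76.1 in KEAP1-KO cells, and 7.82, 9.46, 10.5 and 6.83 in DKO cells. The KEAP1-KO libraries stood far above the rest, 21.2-fold above WT and 9.31-fold above DKO in mean level, while WT and DKO cells overlapped. The log2 difference was 3.51 (SE 0.24) for KEAP1-KO minus WT, -2.75 (SE 0.24) for DKO minus KEAP1-KO and 0.76 (SE 0.24) for DKO minus WT. These are the values that chose the gene, and no test is given. Of all rows tested in culture, 8.13% were called higher in KEAP1-KO cells than in WT cells and 7.33% lower.

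Of the other members, Gbp2, Igtp, Irgm1 and Irgm2 passed the filter in culture. Igtp and Irgm2 passed it only through the KEAP1-KO cells, in which they were high, so that their direction there was fixed by the filter and only Gbp2 and Irgm1 are counted. Of these 2, 1 (Gbp2) had every KEAP1-KO library above every WT library, where 9.9% of rows showed this. Gbp3, which did not pass the filter with its 5 to 12 reads per KEAP1-KO library, held 0, 1.08, 0 and 0 in WT cells, 11.1, 6.12, 4.71 and 7.16 in KEAP1-KO cells and 0.977, 1.05, 0 and 0 in DKO cells. Igtp held 5.70, 1.08, 2.17 and 2.15 in WT cells, 16.7, 11.4, 11.3 and 8.06 in KEAP1-KO cells and 2.93, 4.20, 0 and 3.42 in DKO cells. Irgm2 lay between 2.15 and 4.56 in WT cells, between 6.60 and 8.36 in KEAP1-KO cells and between 2.56 and 3.91 in DKO cells. Gbp3, Igtp and Irgm2 each had their KEAP1-KO libraries above all libraries of both other genotypes. Gbp2 lay between 18.4 and 25.1 in WT cells, 27.9 and 34.9 in KEAP1-KO cells and 15.4 and 23.5 in DKO cells. As log2 differences between KEAP1-KO and WT cells, Gbp3 was at 1.38, Igtp at 1.24 (SE 0.30), Irgm2 at 0.81 (SE 0.21) and Gbp2 at 0.44 (SE 0.16), again with no test. The value for Gbp3 is compressed by this scale, with means of 0.27 in WT, 7.29 in KEAP1-KO and 0.51 in DKO cells. The size of its rise therefore cannot be ranked against that of Gbp7. Irgm1 did not separate the genotypes, with 128, 98.2, 113 and 107 in WT cells, 134, 127, 117 and 125 in KEAP1-KO cells and 120.2, 102, 136 and 141 in DKO cells. Iigp1 had no read in any of the 12 cultured libraries, a count that still allows up to 3 reads over the 4 libraries of a genotype, and Gbp5, Gbp6 and Gbp9 had reads in 1 or 2 libraries only.

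The effect of NRF2 co-deletion in culture was tested on the same 4 members, of which Gbp2 and Irgm1 had a direction that the filter did not fix. Gbp2 fell by 0.58 (SE 0.16, limma adjusted p = 0.047), where 4.85% of rows were called lower, and each of its DKO libraries lay below every KEAP1-KO library, like 7.84% of rows. Irgm1 was 0.02 lower (SE 0.11, limma adjusted p = 0.96). Igtp was called as well, at -1.28 (SE 0.30, limma adjusted p = 0.018), and Irgm2 was not, at -0.71 (SE 0.21, limma adjusted p = 0.058), both in the direction that the filter fixed. The Gbp2 call was lost without any library but DKO library 1, and the Igtp call without KEAP1-KO library 1 or DKO library 3 (adjusted p = 0.059 and 0.051). The Gbp2 call was also lost with no filter (adjusted p = 0.065), quantile normalization (0.070), median centring (0.059), only the groups compared (0.079) and the replicate block (0.11), and the Igtp call with a pseudocount of 0.4 (0.085). Neither gene passed a mean filter of 25 normalized counts. Between DKO and WT cells none of these 4 genes was called or had an unadjusted p under 0.05, where 17.7% of rows were called. The groups overlapped for all 10 genes, where 9.84% of rows did not overlap upward and 11.4% downward.

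Marker genes of macrophages and leukocytes were also read in the cultures. The sum of the 8 macrophage markers lay between 9.12 and 41.0 in WT, between 109 and 119 in KEAP1-KO and between 53.6 and 57.2 in DKO cells, and so had the order of Gbp7. Adgre1, C1qa, C1qb and C1qc were at 0 in all 4 KEAP1-KO cultures, Adgre1 and C1qb in all 4 DKO cultures and Adgre1 in all 4 WT cultures. Cd68, a lysosomal protein in that list, was itself higher in KEAP1-KO than in WT cells by 2.38 (SE 0.24, limma adjusted p = 1.8e-05). The leukocyte markers, with Cd52 and Tyrobp at 0 in KEAP1-KO cells, summed to between 36.8 and 48.9 there, between 18.3 and 26.8 in WT cells and between 3.14 and 15.4 in DKO cells. The part of other cells in the Gbp7 values in culture was not tested.

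Set against culture, WT and DKO tumors had more RNA of these genes, while for KEAP1-KO tumors the calls in either direction were near the share of all rows. Only Gbp2, Igtp, Irgm1 and Irgm2, with Gbp7, passed the filter on the cultures alone. Of these 4, 4 were called higher in WT tumors than in WT cells (24.7% of rows were called higher) and 4 in DKO tumors than in DKO cells (27.6%). Gbp3, Gbp5, Gbp6, Gbp9 and Iigp1, which passed only with the tumors, were called higher in both, a direction that the filter fixed. Differences in WT ran from 0.73 (SE 0.19) for Irgm1 to 4.38 (SE 0.30) for Gbp3, and in DKO from 0.81 (SE 0.19) for Irgm1 to 4.34 (SE 0.30) for Gbp3. The median of all rows moved by between 0.16 and 0.23 in these comparisons. Iigp1, which had no read in culture, was at least 61.6-fold higher in WT tumors and at least 79.3-fold higher in DKO tumors, taking 3 reads over the 4 cultured libraries as the limit. Gbp7 was 5.26 (SE 0.25) higher in WT tumors than in WT cells and 4.60 (SE 0.25) higher in DKO tumors than in DKO cells, without a test.

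For KEAP1-KO, 1 of the same 4 genes, Irgm2, was called higher in the tumors of Experiment A than in cultured KEAP1-KO cells (0.72, where 23.9% of rows were called higher) and 1 lower, Irgm1, at -0.84 (SE 0.19, limma adjusted p = 6.6e-04; 15.8% of rows were called lower). In Experiment B, Irgm2 (1.41) was again the 1 called higher (23.9% of rows) and Irgm1 the 1 called lower, at -0.52 (SE 0.19, limma adjusted p = 0.030; 14.9%). Gbp9 was at 1.81 in Experiment A, and Iigp1 at 1.05 and 1.83 in Experiments A and B, directions that the filter fixed. Irgm1 was thus higher in tumors than in culture for WT and DKO, and lower for KEAP1-KO. Gbp7 in KEAP1-KO tumors lay close to its level in cultured KEAP1-KO cells, 0.39 (SE 0.25) below it in Experiment A and 0.45 (SE 0.25) above it in Experiment B, and each of these tumor groups lay outside the range of the cultures. Gbp2 and Igtp were not called in either comparison.

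The effect of NRF2 co-deletion was compared between tumors and culture as an interaction across all 28 libraries. Gbp2 and Irgm1, the 2 genes that passed the filter on the WT and DKO cultures, were both called toward a higher value in tumors, where 2.12% of rows were called in that direction. The difference of the effects was 3.71 (SE 0.31) for Gbp2 and 1.33 (SE 0.26, limma adjusted p = 0.0030) for Irgm1. Igtp was at 3.27 (SE 0.44) and Irgm2 at 2.57 (SE 0.37), with the direction of the culture part fixed by the filter. Gbp3, which had reads in culture but did not pass the filter there, was at 3.93 (SE 0.42). Gbp5, Gbp6, Gbp9 and Iigp1 had at most 1 library with reads among the cultured KEAP1-KO and among the DKO libraries, so that their values repeat the difference between tumors and test no difference of effects. For Gbp7 the value was 4.15 (SE 0.35), without a test. The same contrast for KEAP1 loss contains the comparison that chose Gbp7 and was not tested. It was -5.65 (SE 0.35) for Gbp7, the lowest of the 10, and -1.58 (SE 0.26) for Irgm1, the highest.

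Gbp7 was then set against each other member within the same library, so that what moves a whole library drops out. The level of such a log2 difference depends on the length of both rows and is not interpreted, but its change between groups is. Gbp5 and Gbp6 were again left out, and over the 14 other pairs the lowest Benjamini-Hochberg adjusted p of the exact tests was 0.0667, so that no pair passed 0.05 (with Gbp5 and Gbp6, 18 pairs, 0.0643). From WT to KEAP1-KO tumors in Experiment A, the within-library difference to Gbp2 went from -0.30 (SD 0.28, n = 4) to 1.26 (SD 0.40), that to Igtp from 1.63 (SD 0.12) to 2.63 (SD 0.15), and that to Gbp3 was 0.86 higher. To Irgm1 it went down, from 0.58 (SD 0.18) to -0.16 (SD 0.07). For these genes the groups did not overlap, and the two-sided exact permutation test gave p = 0.0286, the smallest that 4 against 4 tumors allow. The test took the tumors as unpaired, although a mouse carried both genotypes, because the labels do not say which tumors shared a mouse. The groups overlapped in Experiment A for Irgm2 (0.22), Iigp1 (0.54) and Gbp9 (-0.05). From KEAP1-KO to DKO tumors in Experiment B, the difference to Gbp2 changed by -1.73 and that to Gbp3 by -1.23, each with the same smallest p. For Igtp (-0.59), Irgm2 (-0.47), Iigp1 (-0.66) and Gbp9 (-1.04) the groups overlapped there, with an exact permutation p from 0.0571 to 0.2. For Gbp5 and Gbp6, which were at or near 0 in the KEAP1-KO tumors, the changes were 0.96 and 0.24 in Experiment A and -1.05 and -1.23 in Experiment B, and they support no comparison. To Irgm1 the change in Experiment B was 0.09 (exact permutation p = 0.571). The size of the change depends on the pseudocount where the partner is near 0: with 0.4 in place of 4, it was 3.54 for Gbp5 and 1.35 for Gbp3 in Experiment A and -3.80 for Gbp6 in Experiment B. Irgm2 in Experiment A then did not overlap either, and the lowest adjusted p of the exact tests over the 14 pairs was 0.0571.

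In culture the same measure was a description. Gbp7 minus Gbp2 was -1.81 (SD 0.66) in WT, 1.25 (SD 0.17) in KEAP1-KO and -0.91 (SD 0.22) in DKO cells. Gbp7 minus Irgm1 was -3.95 (SD 0.60), -0.62 (SD 0.06) and -3.35 (SD 0.32) in the same order. In KEAP1-KO cells it was the highest of the 3 cultures for all 9 partners.

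**Figure D3:**
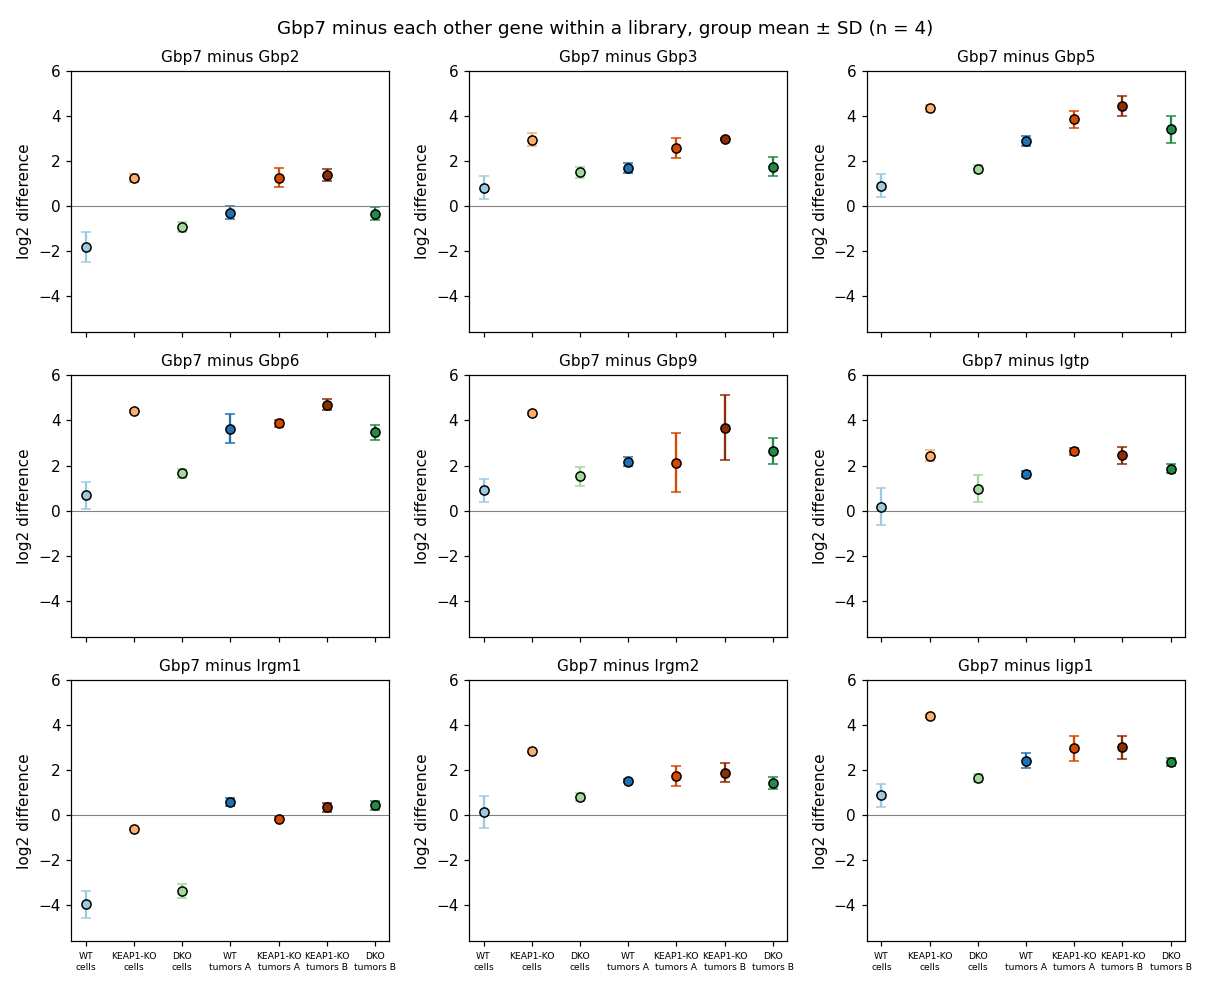
Gbp7 minus each of the 9 other genes within a library, as a log2 difference on the vertical axis, with 1 panel per gene, the 7 groups on the horizontal axis and mean ± SD of 4 libraries as point and bar. Cultured KEAP1-KO cells stand above WT and DKO cells in every panel, and in tumors the KEAP1-KO groups stand above WT and DKO most clearly for Gbp2, at 1.26 and 1.39 against -0.30 and -0.34.

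Ordered by mean level, Gbp7 went from WT cells (3.80 ± 2.85 normalized counts, SD, n = 4) and DKO cells (8.65 ± 1.63), which overlapped, to the KEAP1-KO tumors of Experiment A (60.7 ± 5.37), cultured KEAP1-KO cells (80.5 ± 4.45), the KEAP1-KO tumors of Experiment B (111 ± 5.31), WT tumors (299 ± 118) and DKO tumors (315 ± 121). The last pair overlapped, and every other neighbour was separated. Irgm1 had another order, from KEAP1-KO tumors of Experiment A (68.3 ± 6.23) and B (87.2 ± 14.2) through the 3 cultures (111 ± 12.4 in WT, 125 ± 17.6 in DKO and 126 ± 6.90 in KEAP1-KO) to WT tumors (195 ± 63.9) and DKO tumors (227 ± 67.7), with each neighbour overlapping the next.

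Patterns over the 7 groups were compared by the root mean square difference of centred group means, among 11184 rows with a symbol outside the members. Most like Gbp7 were Ifih1, which senses viral RNA (0.62), Ifi209, an interferon-induced gene (0.64), Creg1 (0.69), Cd68 (0.70) and Trem2, a receptor of macrophages (0.70). Of the members, Gbp3 came nearest at 0.75 (rank 10), then Irgm2 at 0.79 and Igtp at 0.83. Irgm1, at 1.75, came last of the 9. Most like Irgm1 were Wdr66 (0.18), C1rl (0.18), Apol7a (0.19), Gm50321 (0.19) and Trim21 (0.22), a cytosolic antibody receptor.

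Tumors of 1 group did not have the same level, and the genes varied together. Of the WT tumors, tumors 1 and 2 were above the group mean for 10 of 10 genes each, tumor 3 for 1 and tumor 4 for none. DKO tumor 3 was the highest of its group for 10 of 10 genes, with a median of 0.73 above the group mean on the log2 scale. KEAP1-KO tumors varied less evenly, and no KEAP1-KO tumor was above its group mean for more than 8. The sums of marker genes moved as follows. Leukocyte markers summed to 2847, 2990, 2668 and 2340 in WT tumors 1 to 4 and to 2159.8, 2047, 2395 and 1624 in DKO tumors 1 to 4. NK and T cell markers summed to 140.1, 132, 103 and 88.3 in WT tumors and to 65.7, 72.1, 107 and 58.0 in DKO tumors. Both sums were thus highest in DKO tumor 3 among the DKO tumors and lowest in WT tumor 4 among the WT tumors. Neutrophil markers ran the other way, with the highest sum of the WT tumors in tumor 4 (1660.4, against 372 to 620 in the others) and the lowest of the DKO tumors in tumor 3 (181, against 195 to 254). Leaving out any 1 tumor left 7 or 8 of the 8 genes that passed the filter on the KEAP1-KO tumors called in each experiment.

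**Figure D4:**
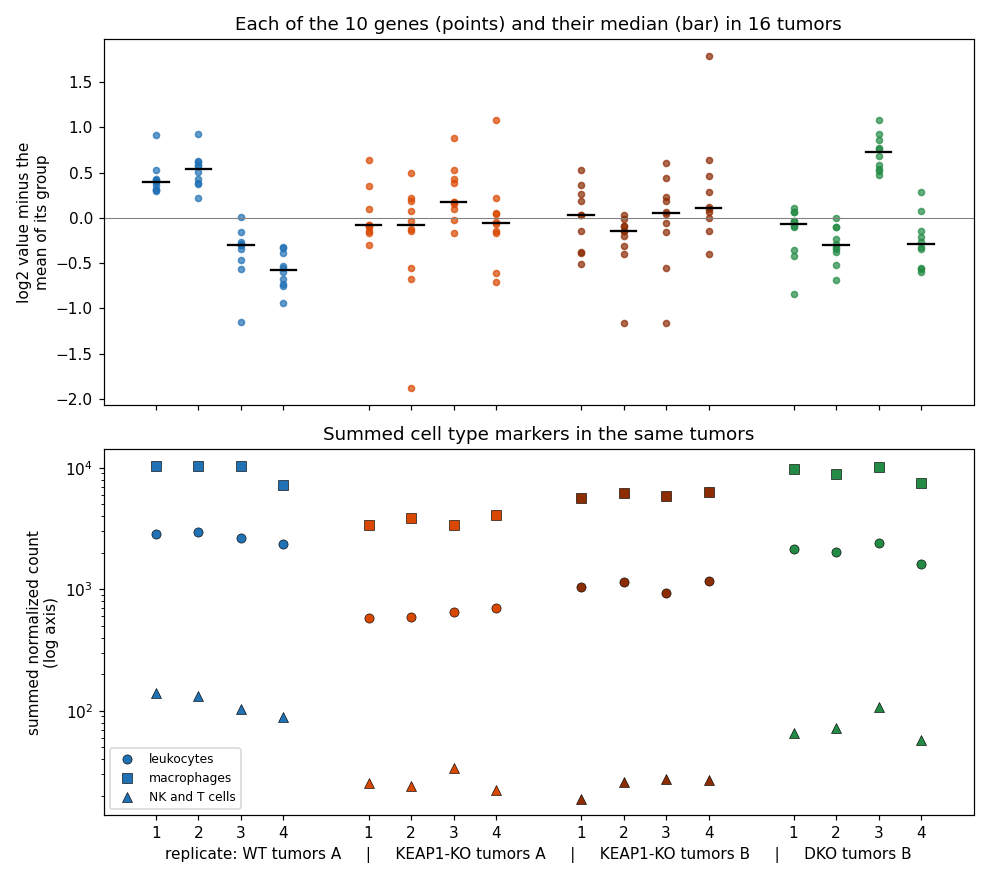
Upper panel, log2 value of each of the 10 genes (points) minus the mean of its group, with the median as a bar, for the 16 tumors on the horizontal axis; lower panel, summed normalized counts of leukocyte, macrophage and NK and T cell markers in the same tumors on a log axis. All 10 genes are above their group mean in WT tumors 1 and 2 and in DKO tumor 3, and the marker sums of both KEAP1-KO groups lie below those of the WT and DKO groups.

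Between genotypes the marker sums of several cell types moved with the GTPase genes, and others did not. In Experiment A all 7 leukocyte and 8 macrophage markers were called lower with KEAP1 loss (7.49% of rows). So were 3 of the 4 neutrophil markers and 4 of the 5 NK and T cell markers tested. The markers were not counted again on the KEAP1-KO tumors alone, so the filter may have fixed the direction of those near 0 there. The leukocyte sum ranged from 579 to 708 in KEAP1-KO and from 2340 to 2990 in WT tumors of Experiment A, and from 928 to 1175 in KEAP1-KO and 1624 to 2395 in DKO tumors of Experiment B, where 6 of 7 markers were called higher. In DKO against KEAP1-KO tumors 4 of 8 macrophage markers, 1 of 4 neutrophil markers and 3 of 5 NK and T cell markers were called higher (4.22% of rows). In Experiment A fibroblast markers summed to between 4140.0 and 9235 in WT tumors and between 1613 and 3983 with KEAP1 loss, and in Experiment B to between 2213 and 2813 in KEAP1-KO and between 10046 and 13152 in DKO tumors. Of the 5 fibroblast markers only 1 was called lower in Experiment A, and 3 were called higher in Experiment B. Skeletal muscle markers had a median sum of 5.54 in those KEAP1-KO tumors and 152 in the DKO tumors, with overlapping ranges. The sums of the endothelial, dendritic cell, keratinocyte and B cell markers (1 gene listed for the last) overlapped between the genotypes in both experiments. Of the NK and T cell markers, Ncr1 and Klrb1c, which define NK cells, were at 0 in all 4 KEAP1-KO tumors of Experiment A. In these bulk libraries fewer cells of a type and less RNA per cell cannot be told apart, and the part of the host cells in the GTPase values was not tested. KEAP1-KO tumors of Experiment B had more of the leukocyte sum than those of Experiment A. Of the macrophage markers 5 of 8 were called higher there, where 0.164% of rows were called in either direction. Of the 10 GTPase genes none was called there and the groups overlapped for 8, with a median log2 difference of 0.56 against 0.01 over all rows.

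Other genes of both families went the same way. Of 14 tested (Gbp4, Gbp8, Tgtp1, Tgtp2, the giant GTPases Gvin1, Gvin2 and Gvin3 and others), 13 were called lower with KEAP1 loss in Experiment A (7.49% of rows), from Gvin1 at -3.34 (SE 0.67) to 9930111J21Rik2 at -0.34 (SE 0.09). F830016B08Rik was the gene not called (-0.64, SE 0.21, limma adjusted p = 0.063). In DKO against KEAP1-KO tumors 9 of the 14 were called higher (4.22% of rows) and none lower, with Tgtp1, an effector IRG, at 2.31 (SE 0.32). Among the 8 that also passed the filter on the KEAP1-KO tumors alone, 7 were called lower in Experiment A and 5 higher in Experiment B. In cultured cells 2 of the family genes passed the filter and neither was called.

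The factors that drive these genes split. Of 13 tested, 6 were called lower and none higher with KEAP1 loss in tumors, where 7.49% of rows were called lower and 5.61% higher. The 6 were Irf7 (-3.00, SE 0.32), Irf1 (-1.91, SE 0.56), Stat2 (-1.58, SE 0.33), Irf9 (-1.52, SE 0.22), Irf8 (-1.18, SE 0.20) and Socs1, an inhibitor of the JAK kinases (-0.74, SE 0.18). In DKO against KEAP1-KO tumors 4 were called higher (4.22% of rows), Irf7 (2.29, SE 0.32), Irf9 (1.21, SE 0.22), Irf8 (0.66, SE 0.20) and Socs1 (0.60, SE 0.17). Irf1 was at 0 in 22 of the 28 libraries, among them all 4 KEAP1-KO tumors of Experiment A, all 4 DKO tumors and 1 WT tumor, so that the direction of its call in Experiment A was fixed by the filter. Among the 10 factors that passed the filter on the KEAP1-KO tumors alone, 5 were called lower in Experiment A and 4 higher in Experiment B. The row of Irf1 is a single protein-coding transcript with few reads, and those of Irf7 and Irf9 are retained introns. The receptor chain Ifngr1, a retained-intron row, was at -0.32 (SE 0.24, limma adjusted p = 0.47) with KEAP1 loss and at -0.13 (SE 0.24, limma adjusted p = 0.84) with NRF2 co-deletion in tumors. Ifng was not analysed here.

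Of 13 other genes that interferon gamma induces, 10 were called lower in KEAP1-KO tumors (7.49% of rows). They ran from Cxcl10 (-3.52, SE 0.41) and Cxcl9 (-3.04, SE 0.25), chemokines that draw T cells, to Nlrc5 (-0.45, SE 0.10). None was called higher (5.61% of rows), and Wars was at 0.23 (SE 0.29). In DKO against KEAP1-KO tumors 10 were called higher (4.22% of rows), from Cxcl10 (3.55, SE 0.41) to Tap2 (0.48, SE 0.11). Wars was called lower (-1.15, SE 0.29), like 4.64% of rows. Among the 8 that passed the filter on the KEAP1-KO tumors alone, 5 were called lower in Experiment A, and 6 higher and 1 lower in Experiment B. In cultured KEAP1-KO against WT cells 3 of 10 were called higher and 2 lower, where 8.13% of rows were called higher and 7.33% lower. Cd274 was highest (1.16, SE 0.23) and Psmb9, a subunit of the immunoproteasome, lowest (-1.98, SE 0.42).

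Partners of the GTPases in membrane tagging and the inflammasome were mixed. Of 18 tested, 8 were called lower and 3 higher with KEAP1 loss in tumors, where 7.49% of rows were called lower and 5.61% higher. They ran from Nos2, the inducible nitric oxide synthase, at -3.72 (SE 0.47), to Casp4, at 1.59 (SE 0.14). Casp4 encodes caspase-11, which senses the bacterial lipopolysaccharide that GBPs expose. In culture Casp4, a transcript classed as a target of nonsense-mediated decay, was higher in KEAP1-KO than in WT cells by 2.64 (SE 0.33, limma adjusted p = 0.00012) and lower in DKO than in KEAP1-KO cells by 2.42 (SE 0.33, limma adjusted p = 0.00038). It thus rose with KEAP1 loss in culture as Gbp7 did, but, unlike Gbp7, was also higher in KEAP1-KO than in WT tumors. In DKO against KEAP1-KO tumors 5 of the 18 were called higher (4.22% of rows) and none lower (4.64% of rows), and Casp4 was at -0.32 (SE 0.14, limma adjusted p = 0.20).

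A further 4 rows of Gbp5 and Gbp6 transcripts carry no symbol in the table and were matched through GENCODE vM21. A Gbp6 row (ENSMUST00000199944) was -1.48 (SE 0.31, limma adjusted p = 0.0036) in KEAP1-KO against WT tumors and 1.68 (SE 0.31, limma adjusted p = 0.0020) in DKO against KEAP1-KO tumors. A Gbp5 row (ENSMUST00000199578) was -1.56 (SE 0.30, limma adjusted p = 0.0020) and 1.19 (SE 0.30, limma adjusted p = 0.018). Both are retained introns, and neither passed the filter in culture. Set against cultured KEAP1-KO cells, the KEAP1-KO tumors of Experiments A and B were at -0.08 and 0.13 for the Gbp6 row and at 0.17 and 0.16 for the Gbp5 row. Both rows thus passed only through the WT and DKO tumors. Their direction was fixed by the filter, as for the named rows, and adds no support. Another Gbp5 row (ENSMUST00000196255) was at -1.10 (SE 0.68) and 1.37 (SE 0.68) and was not called, and the last (ENSMUST00000197459) did not pass the filter among the tumors. Set against culture, where it was tested, this last row was -1.27 (SE 0.35, limma adjusted p = 0.0051) for KEAP1-KO in Experiment B and -0.83 (SE 0.35, limma adjusted p = 0.057) for DKO, while the named Gbp5 row was at 0.33 and 2.85. For WT it was at 0.23 (limma adjusted p = 0.65) and for KEAP1-KO in Experiment A at -0.41 (limma adjusted p = 0.39), with the named row at 3.275 and 0.093.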

How the data were processed

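RNA of 16 tumors and 12 cultures was depleted of ribosomal RNA, sequenced with stranded libraries and quantified by the authors with Salmon against GENCODE mouse transcripts. The extraction text among the labels names liver; titles and methods were followed. The deposited table of 43143 rows is in log2: its lowest value is 2, and undoing log2(x + 4) gave whole reads (within 0.02) for 100% of low values, which is how scale and depth were read. The methods name TPM, but the recovered values are multiples of 1 read that is worth the same in every row of a library, so they are called normalized counts; how they were scaled is not given in the sources used here. A row needed 5 normalized counts in 4 libraries of a fit; counts over genes passing this in the low groups were added after the data were seen. limma 3.58.1 (R 4.3.3, trended eBayes) was fitted to the tumors, the cultures and all libraries, with Benjamini-Hochberg adjustment over all rows tested, and was tested on simulated data. Within-library differences were tested by exact permutation. The members and all gene, marker and motif lists were chosen with earlier results of these data known. All members are named; of other lists, the extremes, Irf1, Ifng and Ifngr1, and others after their values were seen; 1 further gene of that rule is not reported here. Alternatives were a pseudocount of 0.4, no filter, a mean filter of 25, quantile normalization, median centring, only the groups compared, no trend, a replicate block and each library left out.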

Additional observations from a re-analysis of the deposited data

Results flagged for a closer look

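The effect of NRF2 co-deletion differed between tumors and cultured cells for Gbp2 (3.71 on the log2 scale) and Irgm1 (1.33), the 2 genes that passed the filter on the WT and DKO cultures, by an interaction test (limma, adjusted p under 0.05), where 2.12% of rows were called in that direction. Igtp at 3.27 and Irgm2 at 2.57 passed in culture only through the KEAP1-KO cells, so that the direction of the culture part was fixed by the filter. Gbp3, Gbp5, Gbp6 and Iigp1 passed the filter only through the tumors and stood at 3.93, 2.52, 2.63 and 2.06, and these values test no difference of effects. For the effect of KEAP1 loss, Gbp2, 1 of these 2, had every KEAP1-KO library above every WT library in culture and every KEAP1-KO tumor below every WT tumor, a pattern of 0.322% of 37246 rows. It was also seen for Igtp and Irgm2, whose culture part the filter fixed, for Gbp7, whose value in culture chose it, and for Gbp3, which was below the filter in culture. The difference of the effects was -4.15 for Gbp2, -4.39 for Gbp3, -5.65 for Gbp7, -4.39 for Igtp and -3.17 for Irgm2, and it was not tested, because the rule that chose Gbp7 used this contrast.

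Of 62 sets of 4 libraries (each gene in each group with any read), 12 had 1 library far from the other 3 by Dixon's criterion. Chance gives about 1 in 20 for continuous values, a rate that does not apply to 8 of the 12, in which the other libraries are at 0: Gbp3 at 1.08 normalized counts in WT culture 2, Gbp5 at 0.874 in KEAP1-KO culture 2 and 2.31 in KEAP1-KO tumor 2 of Experiment A, Gbp6 at 3.24 in WT culture 2, 1.93 in KEAP1-KO tumor 3 of Experiment A and 2.03 in KEAP1-KO tumor 3 of Experiment B, and Gbp9 at 0.929 in KEAP1-KO culture 1 and 1.71 in DKO culture 4, each with the other 3 libraries at 0. Irgm2 was at 4.56 in WT culture 1, where the other 3 cultures held 2 reads each. Gbp3 was low, at 9.31, in KEAP1-KO tumor 2 of Experiment B. In DKO tumor 3, Gbp2 was at 530.2 and Iigp1 at 96.3, above the other DKO tumors.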

How the results depend on the processing

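In tumors, counting Gbp5 and Gbp6, leaving out 1 library in turn left 9 to 10 members called in each experiment, and every other alternative gave 9 or 10, except a mean filter of 25 normalized counts, which leaves fewer genes tested and gave 8 in each. Genes under about 4 normalized counts have compressed differences, and changes there were often not detectable. For DKO minus KEAP1-KO cultured cells the 2 calls, counting Igtp, became 1 with a pseudocount of 0.4, quantile normalization, median centring, only the groups compared or the replicate block, 0 with a mean filter of 25, and 0 to 2 without 1 library; the cause was not tested. With that mean filter the calls were 5 for WT and for DKO tumors minus cultured cells and for the NRF2 interaction, and 2 for KEAP1-KO tumors of Experiment A minus cultured cells, for which only the groups compared gave 1. Signs turned, without a call, for Gbp6 between KEAP1-KO tumors (-0.0068 with median centring, -0.14 to 0.15 without 1 tumor), Irgm1 in DKO minus KEAP1-KO cells (0.0091 with median centring, -0.079 to 0.072 without 1 library), Gbp7 minus Gbp9 in Experiment A (0.83 with a pseudocount of 0.4, -0.67 to 0.33 without 1 tumor), and, without 1 library, Gbp7 minus Irgm2 in Experiment A (-0.00061 to 0.31), Igtp in DKO minus WT cells (-0.16 to 0.19), and, in DKO minus WT tumors, Gbp2 (-0.022 to 0.27), Gbp3 (-0.27 to 0.27), Gbp6 (-0.13 to 0.56), Gbp7 (-0.14 to 0.30), Igtp (-0.44 to 0.048), Iigp1 (-0.10 to 0.29) and Irgm2 (-0.011 to 0.38). Gbp9 in Experiment A was called with a mean filter of 25 (adjusted p = 0.035) and in 3 of 8 fits without 1 tumor (adjusted p from 0.037 to 0.16 over the 8); in Experiment B its call was lost with the replicate block (0.062) and a pseudocount of 0.4 (0.083). Same-numbered libraries did not deviate together (correlations from -0.03 to 0.03). The numbers were therefore not used as pairs in the main fits, but this cannot show which tumors shared a mouse. The replicate block gave 9 members in each tumor experiment.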
